A study of Mus musculus with 4 samples.

Results

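A set of 1260 genomic regions carried a histone H4 acetylation peak in both libraries from macrophages that still had HDAC3 and in neither library from macrophages without it. They were found by merging overlapping or touching peaks of the 4 deposited peak lists into 62481 regions, and then keeping those with a peak in both wt lists and in no HDAC3 KO list. They made up 2.02% of all merged regions and 5.67% of the 22229 regions called in both wt libraries. Because the calls of all 4 libraries chose these regions, their calls and scores are given as a description and carry no test. They are called wt-only regions here.

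Acetyl groups on the tail of histone H4 weaken its hold on DNA and neighbouring nucleosomes, and the mark is found at active promoters and enhancers. HDAC3 is a deacetylase that works as the catalytic subunit of the NCoR and SMRT corepressor complexes, which nuclear receptors and other factors bring to chromatin. The regions described here were called acetylated where the enzyme was present, which is the opposite direction to its own activity. In macrophages, lipopolysaccharide (LPS) from Gram-negative bacteria acts through TLR4 to switch on inflammatory genes.

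The cells were primary bone marrow-derived macrophages of C57BL/6 mice, cultured in medium conditioned by L929 cells and taken on day 7 of differentiation. Those called wt were HDAC3 +/- and so carried 1 disrupted copy, and those called HDAC3 KO were HDAC3 -/-. Each genotype was either left without treatment or given LPS at 100 ng/ml for 4 h. Each of the 4 groups had 1 library, immunoprecipitated with an antibody against acetylated histone H4, so there was no spread between replicates and none of the differences below was tested. How HDAC3 was disrupted, and how many animals gave cells, was not given in the sources used here.

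The lists held 39550 to 48706 peaks that covered 35.4 to 50.4 Mb, with the greatest coverage in LPS-treated HDAC3 KO. Read depth is unknown. Peaks bear a score set by the authors' peak calling, from 50 upward, whose scale is not stated and which depends on depth and input. It is used here to rank peaks within a list: a percentile of 100 is the highest-scored peak of a list and a percentile of 50 the middle one. Where a region held several peaks of a list, the highest-scored one was used. Coordinates are on the mm9 build and count from 1. The gene table at hand is on another build, so no gene, exon or intron is attached to any region, and macrophage marker loci were not examined.

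The strongest wt-only regions were well above the lowest scores in both wt libraries. The first was chr15:12596745-12598651, with a score of 579 in untreated wt (percentile 93.9) and 1439.7 in LPS-treated wt (percentile 96.1). Its untreated peak covered 1775 bp and its LPS peak 1907 bp, and the nearest HDAC3 KO peak lay 101015 bp away. It was the most isolated of the 3 regions scored at least 500 in both wt lists.

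The second was chr6:124946762-124949111, scored 873 untreated and 952 with LPS, with the nearest HDAC3 KO peak 9.01 kb away. The third, chr6:48486825-48488337, was scored 785 and 834, with the nearest HDAC3 KO peak at 15.7 kb. Both lay on chromosome 6, far apart, and beside each the nearest HDAC3 KO peak belonged to a region called in all 4 libraries. In these regions the untreated and LPS peaks shared 72.2% and 96.2% of their joint length.

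Of the next 9 by rank, 6 had the higher score in LPS-treated wt. The score went from 324 untreated to 885 with LPS at chr16:91864236-91866849. It went from 293 to 494 at chr12:26799791-26801112. It went from 244 to 617 at chr9:120181069-120182373. Scores of different lists depend on each library's depth, so these pairs describe the lists and not an amount of acetylation. The others of the 6 were chr5:104028004-104028890, at 306 and 434, chr11:116528900-116530462, at 284 and 377, and chr11:3091776-3095139, at 391 and 528. The last of these was also the widest wt-only region, at 3364 bp. By percentile, these others ranked lower with LPS, at 81.5 untreated and 79.2 with LPS, 79.4 and 76.2, and 87.1 and 83.0 in turn. The regions on chromosomes 16, 12 and 9 ranked higher with LPS, at 82.9 and 91.3, 80.2 and 81.7, and 75.2 and 85.7.

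The remaining 3 had the higher score in untreated wt. The clearest was chr14:56433367-56435088, at 721 untreated and 361 with LPS. The scores were 494 and 454 at chr19:42869615-42870348, and 432 and 360.2 at chr5:91319651-91321112. Over these 12 strongest regions the lowest percentile in either wt list was 75.2. Their nearest HDAC3 KO peaks lay 1.56 to 144 kb away.

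**Figure D1:**
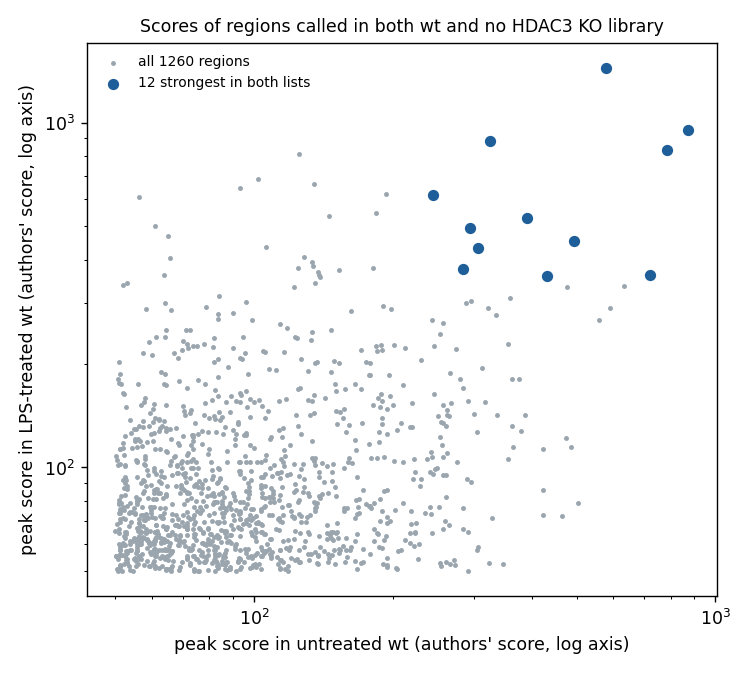
Score of each of the 1260 wt-only regions in untreated wt (horizontal) and LPS-treated wt (vertical), both on log axes; each point is a region and the 12 strongest are in blue. Most points crowd at the low end of both axes, and only 30 regions reach a score of 200 in both lists.

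Most wt-only regions were weak calls. Their median score was 86.2 in untreated wt and 77.2 in LPS-treated wt, which were percentiles 36.2 and 26.4 of those lists. Regions called in all 4 libraries had medians of 268 and 306 in the same lists, at percentiles 77.9 and 71.5. Low scores were not particular to wt-only regions. Those called in both HDAC3 KO and no wt library had medians of 80.0 untreated and 93.3 with LPS in the HDAC3 KO lists, at percentiles 31.0 and 34.0. Of the wt-only regions, 774 (61.4%, exact interval 58.7 to 64.1%) were below the list median in both wt libraries. Another 265 were above it in untreated wt alone and 105 in LPS-treated wt alone, and 116 (9.21%, 7.67 to 10.9%) were above it in both. In all, 30.2% of wt-only regions were above the median in untreated wt and 17.5% in LPS-treated wt. Among all regions called in both wt libraries these shares were 74.6% and 67.2%. Intervals here and below cover counting error only, since neighbouring regions are not independent.

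The share of regions without any HDAC3 KO peak fell steeply with strength in wt. Regions called in both wt libraries were ordered by the lower of their 2 percentiles. In the weakest class, at percentiles up to 10, 346 of 1637 (21.1%) had no HDAC3 KO peak. Between percentiles 40 and 50 it was 86 of 2187 (3.93%), and above 90 it was 3 of 2181 (0.138%, interval 0.0284 to 0.401%). A peak in both HDAC3 KO libraries was present in 42.2% of the weakest class and in 99.8% of the strongest. In each class a lone HDAC3 KO peak came more often from the LPS-treated than the untreated library.

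**Figure D2:**
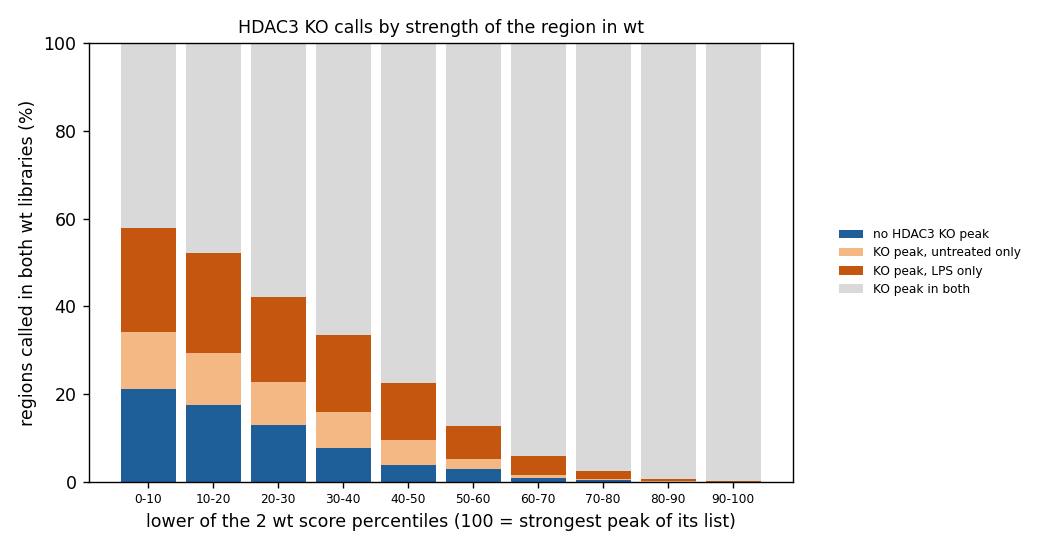
Regions called in both wt libraries, in 10 classes by the lower of their 2 wt score percentiles (horizontal), and the percentage of each class by HDAC3 KO call (vertical, stacked to 100%). The blue part, with no HDAC3 KO peak, shrinks from 21.1% in the weakest class to 0.138% in the strongest.

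The limit between wt-only and other regions was fine-grained. Just inside it, chr4:144812267-144812847, chr11:115578753-115579299 and chr1:167696921-167697481 were 4, 6 and 7 bp from an HDAC3 KO peak, and 65 wt-only regions had one within 100 bp. Just outside it, chr4:144658807-144659319 was scored 54.4 and 52.3 in wt and had a single HDAC3 KO peak, in the LPS-treated library, scored 50.01. At chr6:148988389-148989554 the only HDAC3 KO peak was scored 50.04, and at chr1:165991343-165993349 it was scored 50.13, beside wt scores of 61.4 and 498. Of the 3142 regions called in both wt libraries and in 1 HDAC3 KO library, 327 had an HDAC3 KO score under 60. In the whole untreated HDAC3 KO list, scores of 56.0 and 67.9 were at percentiles 9.21 and 21.7. In the LPS-treated HDAC3 KO list, scores of 51.7 and 68.6 were at percentiles 2.25 and 19.3. The share of all HDAC3 KO peaks under 60 is not given, so the 327 cannot be called particular to these regions.

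wt-only regions were narrow and mostly single peaks. Their median width was 661.5 bp, from 145 to 3364 bp, and they covered 0.933 Mb in all. The median was 1761 bp for regions called in all 4 libraries, which pool the edges of peaks from more lists, and 842 bp for the 1752 regions called in both HDAC3 KO and no wt library (HDAC3 KO-only regions, 2.80% of all merged regions). In 1176 of the 1260 (93.3%) there was exactly 1 peak from each wt list. The same held for 50.8% of regions called in all 4. Among HDAC3 KO-only regions, 89.0% had exactly 1 peak from each HDAC3 KO list. Wider regions tended to have higher scores, with a Spearman rho of 0.40 between width and the lower percentile over the 1260 regions, both taken from the same libraries.

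The peaks of untreated and LPS-treated wt shared part of their length within these regions, as the rule requires of most. Their overlap had a median of 63.9% of their joint length, with 46.4% and 77.0% as quartiles, and 14 regions had an overlap under 10%. In the 93.3% of regions with 1 peak from each wt list, those peaks had to overlap or touch to be merged. Regions called in all 4 libraries can also be joined by HDAC3 KO peaks, so their overlap is less bound by the rule. For regions called in all 4 libraries the median overlap of the same 2 wt lists was 69.2%, and for HDAC3 KO-only regions the overlap of the 2 HDAC3 KO lists was 58.5%. LPS peaks were wider than untreated peaks in 55.4% (52.6 to 58.2%) of wt-only regions, next to 56.0% of the regions called in all 4. Besides chr11:3091776-3095139 and chr16:91864236-91866849, the widest were chr13:44509982-44512977 (2996 bp), chr12:113260927-113263740 (2814 bp) and chr5:123487637-123490148 (2512 bp).

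wt-only regions had the higher rank in the LPS-treated wt list about as often as other wt regions did. A higher percentile in LPS-treated than in untreated wt was found in 464 of 1260 (36.8%, 34.2 to 39.6%). Among all regions called in both wt libraries it was 39.2%, and among those called in all 4 libraries 37.0%, so the share was close to the background. The median difference in percentile, LPS minus untreated, was -8.62 in wt-only regions and -4.21 in regions called in all 4. The wt lists differ in length, so a lower percentile is not by itself a change. When each list was held to its 20000 top peaks by score, the share was 17.7%, a setting in which the score limit falls at a different percentile of each list. No share over all regions called in both wt libraries is given for that setting, so the 17.7% cannot be set against a background. Percentiles in the 2 libraries were weakly related, with a Spearman rho of 0.20 across wt-only regions (Pearson r 0.25), next to 0.56 across regions called in all 4 (Pearson r 0.50). Between the 2 HDAC3 KO lists, rho was 0.18 across HDAC3 KO-only regions (Pearson r 0.22). These are descriptions across regions, which were chosen by a score floor in the same lists.

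Single wt-only regions nonetheless lay at opposite ends of the 2 wt lists. chr2:120485333-120486809 was scored 56.3 in untreated wt (percentile 9.71) and 610.1 with LPS (percentile 85.6). chr13:63246474-63248028 was scored 61.1 and 503, and chr2:10893857-10895286 was scored 65.1 and 469. chr19:43953895-43954819 and chr6:136809729-136810546 completed the 5 with the largest rise in percentile, at 52.1 and 52.9 untreated and 337 and 344 with LPS. In each of these 5 the LPS peak also covered more than the untreated one, from 748 to 1477 bp at the first and from 298 to 1430 bp at the last-ranked, chr2:10893857-10895286. Their untreated scores, 52.1 to 65.1, were low in a list that starts at 50. Their place among wt-only regions thus rested on a weak untreated peak.

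In the opposite direction, chr4:47104258-47105114 was scored 345 in untreated wt (percentile 84.4) and 52.5 with LPS (percentile 2.96). chr6:115271107-115272366 was scored 291 and 50.15, and chr5:108127636-108128455 was scored 322 and 52.7. chr17:46738828-46739983, at 273 and 52.2, and chr1:51650988-51652085, at 265 and 52.5, were the others. All 5 had an LPS score close to the lowest that the list holds, so their place among wt-only regions rested on a weak LPS peak.

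HDAC3 KO peaks were less near to wt-only regions than to regions called in all 4 libraries. An untreated HDAC3 KO peak outside the region lay within 1 kb of 17.7% of wt-only regions and 35.7% of regions called in all 4, and an LPS peak within 1 kb of 21.0% and 39.9%. The rule itself removes regions that an HDAC3 KO peak reaches. Over both HDAC3 KO lists, the nearest peak lay at a median of 5.72 kb, with quartiles of 0.802 and 18.5 kb. It was within 500 bp for 261 regions (20.7%, 18.5 to 23.1%) and within 1 kb for 337 (26.7%, 24.3 to 29.3%), and farther than 50 kb for 139 (11.03%, 9.35 to 12.9%). HDAC3 KO-only regions lay closer to wt peaks, at a median of 2.42 kb, with 36.8% (34.5 to 39.1%) within 1 kb and 7.02% beyond 50 kb. Each distance depends on how many peaks the other genotype's lists hold.

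**Figure D3:**
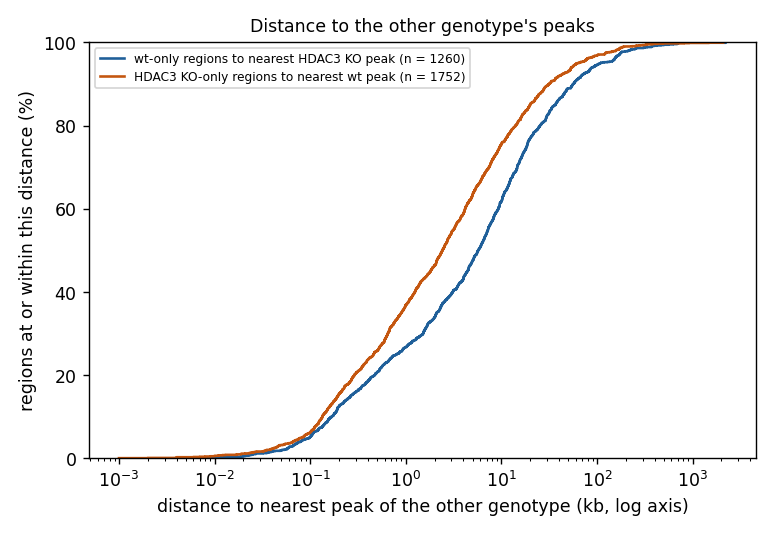
Cumulative percentage of regions (vertical) by distance to the nearest peak of the other genotype (horizontal, kb, log axis), for the 1260 wt-only regions in blue and the 1752 HDAC3 KO-only regions in orange. The blue curve runs below the orange one from about 0.1 kb on, with medians of 5.72 and 2.42 kb.

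For the 337 wt-only regions with an HDAC3 KO peak within 1 kb, that peak came from LPS-treated HDAC3 KO in 204 and from untreated HDAC3 KO in 132, with 1 tie. It belonged to a region called in all 4 libraries in 141 of the 337 (41.8%, 36.5 to 47.3%). In 51 it belonged to a region called in HDAC3 KO and in no wt library, of which 22 were called in untreated HDAC3 KO alone, 22 in LPS-treated HDAC3 KO alone and 7 in both. Regions called in all 4 libraries numbered 17827 of the 62481 merged regions. The share of all HDAC3 KO peaks in each kind of region is not given, so these counts have no background and describe the 337 only. The neighbouring peak had a median percentile of 36.9 in its own list. wt-only regions this close to an HDAC3 KO peak had median scores of 77.6 in untreated and 73.4 in LPS-treated wt, against 90.1 and 79.1 in the 784 at 1 to 50 kb and 88.9 and 79.4 in those beyond 50 kb.

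Among the 50% of wt-only regions with the higher values of the lower wt percentile, the most isolated was chr15:15019995-15020845, 2233 kb from any HDAC3 KO peak, with a score of 93.3 untreated and 645 with LPS. chr10:28313328-28313778 was 718 kb from one, with scores of 85.4 and 76.6. chr4:16833978-16834553 and chr4:16834564-16835299 adjoined each other, 691 and 692 kb from an HDAC3 KO peak. Their scores were 209 and 134 for the first and 178 and 117 for the second, so this pair was called in both wt libraries on both sides of a short gap. chr12:107896208-107896735, at 625 kb, was scored 123 and 85.9.

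HDAC3 KO peaks were also sparser in the flanks of wt-only regions. In the 10 kb on either side, outside the region itself, untreated peaks covered a mean of 1191 bp in wt and 894 bp in HDAC3 KO, and LPS peaks 1294 and 1231 bp. Around regions called in all 4 libraries these means were 1469 and 1655 bp untreated and 1593 and 2272 bp with LPS. The flanks held no untreated HDAC3 KO peak at all in 627 of 1260 wt-only regions (49.8%, 47.0 to 52.6%), and no untreated wt peak in 412 (32.7%, 30.1 to 35.4%). With LPS these shares were closer, at 45.0% for HDAC3 KO and 38.4% for wt. Around regions called in all 4 they were 32.7% for HDAC3 KO and 29.7% for wt untreated, and 30.6% and 34.9% with LPS.

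Part of this follows from the rule, since an HDAC3 KO peak that reached the region would have removed it. The same was therefore read from 2 to 10 kb away. There the ratio of HDAC3 KO to wt covered length was 0.80 untreated and 1.02 with LPS. It was 0.91 and 1.18 around regions called in both wt and 1 HDAC3 KO library, 1.12 and 1.42 around regions called in all 4, and 1.45 and 1.97 around HDAC3 KO-only regions. The ratio of the total covered lengths of the lists was 1.03 untreated and 1.35 with LPS. The order of the sets was thus the same in untreated and LPS-treated libraries, and wt-only regions were lowest in both. Calls in these same libraries defined the sets, so at this distance too the order is a description that does not stand apart from the rule.

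The ratio moved towards that of the whole lists farther out. From 20 to 50 kb it was 0.95 untreated and 1.22 with LPS around wt-only regions, and 1.09 and 1.37 around regions called in all 4. The distance bands were chosen after the flank values were seen, and with 1 library in each group the difference was not tested. The sources used here do not say whether libraries were prepared together by genotype, so an effect of preparation and of genotype cannot be told apart.

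**Figure D4:**
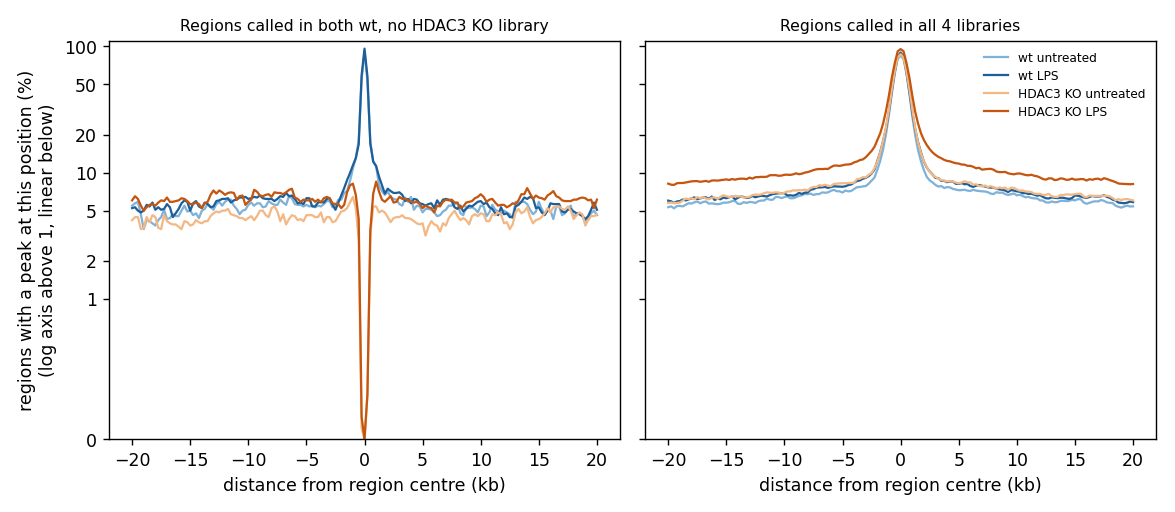
Percentage of regions with a peak (vertical, log axis above 1 and linear below) by distance from the region's centre (horizontal, kb, in steps of 250 bp) in each of the 4 libraries, for wt-only regions (left) and regions called in all 4 libraries (right). At 5 kb to the right of the centre of wt-only regions, an untreated peak was present in 4.84% for wt and 3.97% for HDAC3 KO. Around regions called in all 4 it was 7.25% and 8.23%. At 5 kb to the left the values were 5.56% and 4.60% for wt-only regions, against 6.96% and 8.23%.

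Most wt-only regions lay apart from each other. In 50-kb windows, 1068 windows held 1 of them, 75 held 2, 11 held 3, 1 held 4 and 1 held 5. Another wt-only region was within 50 kb of 284 (22.5%, 20.3 to 24.9%) and within 1 kb of 52 (4.13%, 3.10 to 5.38%). HDAC3 KO-only regions were closer together, with 41.4% (39.1 to 43.7%) within 50 kb and 11.7% (10.2 to 13.3%) within 1 kb of another of their kind, though there were also more of them.

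The window with 5 was chr16:91850001-91900000. Its wt-only regions included chr16:91864236-91866849, named above, with scores of 324 and 885, and chr16:91861926-91862791, with scores of 115 and 129.97. The other members there were scored between 55.3 and 74.1. Peaks covered 10280 bp of this window in untreated wt and 16235 bp in LPS-treated wt, but 5662 and 5956 bp in HDAC3 KO. Of the 13 merged regions in the window, 12 were called in LPS-treated wt, 8 in untreated wt and 2 in each HDAC3 KO library, so LPS-treated wt held more of the window than any other library.

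The window with 4 was chr14:56400001-56450000. Untreated wt peaks covered 6727 bp and LPS peaks 4658 bp of it in wt, against 1127 and 1355 bp in HDAC3 KO. Its wt-only regions were chr14:56412084-56412808, scored 98.3 untreated and 55.4 with LPS, chr14:56414376-56415159, scored 148 and 55.8, chr14:56433367-56435088, scored 721 and 361, and chr14:56441772-56442681, scored 195 and 71.7. All 4 had the higher score in untreated wt. They lay in a span of 64.6 kb, chr14:56408101-56472686, with no peak in either HDAC3 KO library. Wholly inside it were 5 peaks of untreated wt and 4 of LPS-treated wt, and further wt peaks crossed its ends.

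The third window, chr9:46250001-46300000, had the highest summed percentiles among those with 3. Its wt-only regions were chr9:46289645-46291062, scored 193 untreated and 621 with LPS, chr9:46291085-46291968, scored 184 and 545, and chr9:46297733-46298714, scored 162 and 284. All 3 had the higher score with LPS, opposite to the chromosome 14 group. No HDAC3 KO peak was listed in the window or anywhere in the 1115 kb from chr9:46137252-47252440. wt peaks were few in that stretch too, with 3 of untreated wt and 5 of LPS-treated wt.

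Between flanking HDAC3 KO peaks, 1257 of the 1260 regions fell into 1159 spans free of HDAC3 KO peaks, with a median length of 45.1 kb. The other 3 had no HDAC3 KO peak on at least 1 side. A single wt-only region was found in 1076 of these spans, 2 in 70, 3 in 11 and 4 in 2. The spans with 4 were the one on chromosome 14 and chr2:10282422-10934463, which was 652 kb long. The latter wholly contained 4 peaks of untreated wt, which covered 2020 bp with scores up to 161, and 16 peaks of LPS-treated wt, which covered 13742 bp with scores up to 885. Its wt-only regions included chr2:10893857-10895286, scored 65.1 untreated and 469 with LPS, and chr2:10926949-10927864, scored 161 and 133. Of its 16 LPS peaks, 15 lay in the last 60 kb, as the map of the span shows.

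**Figure D5:**
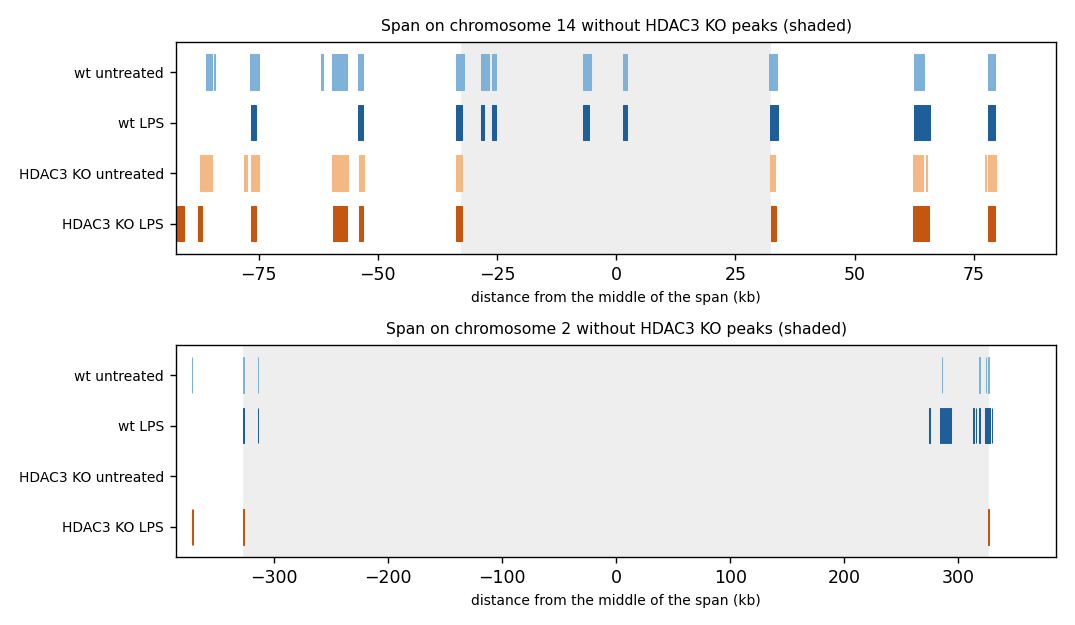
Peaks of the 4 libraries (coloured blocks, to scale) in the spans on chromosome 14 (top) and chromosome 2 (bottom) that hold 4 wt-only regions each; the horizontal axis is the distance in kb from the middle of the span, and the shaded part has no HDAC3 KO peak. Wholly inside the shaded part are 5 untreated and 4 LPS wt peaks on chromosome 14, and 4 untreated and 16 LPS wt peaks on chromosome 2, most of them towards its right end; peaks that cross the ends are not in these counts.

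By chromosome, wt-only regions made up between 3.82% and 8.58% of the regions called in both wt libraries. The highest share was on chromosome 16, with 67 of 781 (8.58%, 6.71 to 10.8%), and the next on chromosome 12, with 64 of 862 (7.42%, 5.76 to 9.38%). The lowest was on chromosome 7, with 57 of 1494 (3.82%, 2.90 to 4.92%). These were the extremes of 20 chromosomes and were not tested. HDAC3 KO-only regions made up 7.36% of the regions called in both HDAC3 KO libraries on chromosome 16, 9.66% on chromosome 12 and 7.90% on chromosome 7, next to 7.55% genome-wide. On the X chromosome the wt-only share was 5.31% (3.46 to 7.74%).

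By the rule, every wt-only region has the genotype difference under both treatments. They were 10.6% of the regions that untreated wt had and untreated HDAC3 KO lacked, and 17.3% of those called in LPS-treated wt and not in LPS-treated HDAC3 KO. The 1752 HDAC3 KO-only regions were 21.4% of the regions that untreated HDAC3 KO had and untreated wt lacked, and 11.98% of the 14619 such regions with LPS. The HDAC3 KO-only share was thus the greater untreated and the smaller with LPS. These shares depend on the length of each list, and LPS-treated HDAC3 KO covered the most.

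With the median score of each list as a floor in the wt lists, and any HDAC3 KO peak still counted as present, 116 wt-only regions were left. With that floor in all 4 lists there were 578, and an HDAC3 KO peak below the floor was then not counted as present. HDAC3 KO-only regions numbered 168 and 764 under the same settings, so they were more numerous than wt-only regions in both, as in the full lists. The exception among the 7 alternatives tried was a requirement of no peak of the other genotype within 5 kb, which left 661 wt-only and 643 HDAC3 KO-only regions.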

How the data were processed

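Acetylated histone H4 was mapped by ChIP-seq in 4 mouse macrophage libraries, 1 per group. Per the file headers, the authors called peaks with MACS for each library against input; the deposited score of each peak is their own value, on an unstated scale. Bowtie and mm9 come from the submitters' processing notes; versions and settings are not given in the sources used here. Files hold peaks, not reads, so depth per sample is unknown and sets no interval.

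From these lists, peaks at a distance of 0 bp or less were merged (checked against bedtools 2.31.1), and distances, covered lengths and within-list percentiles were computed in Python 3.11.15 with numpy 2.4.6, pandas 2.3.3, scipy 1.17.1 and matplotlib 3.10.9. Shares have exact (Clopper-Pearson) 95% intervals. On 30000 simulated regions, 9 of 9 counts were recovered. The simulated regions lay well apart with at most 1 peak per library, so nearly touching peaks were not part of that check. No test between groups was run, since no group has replicates. The members and lists were chosen with earlier results of these data known.

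Named regions were the 12 with the highest lower percentile, the 5 widest, the 5 farthest from HDAC3 KO peaks among the 50% with the higher lower percentile, the 5 with the largest percentile difference each way, the 3 windows of 50 kb with the most members (equal counts ordered by summed percentiles), the 3 nearest the limit on each side, and the members of the spans shown, the last chosen after values were seen. Chromosome 18 was counted but is not named. The reference tables are on GRCm38, so gene lists, cell type markers, promoter shares, motifs and sequences were not used. Alternatives were score floors, other merging, distance and coverage rules, and fewer chromosomes.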

Additional observations from a re-analysis of the deposited data

How the results depend on the processing

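Of 55 comparisons of 8 results with 7 alternatives, 15 stayed within 1.5 times (counts) or within the interval (shares and the median width) and 40 moved; none was tested. Leaving out sex and unplaced sequences moved none. With peaks at or above the list median, there were 578 wt-only and 764 HDAC3 KO-only regions, wt-only regions were 4.54% of those in both wt libraries, their median width was 1003 bp, and 17.99% had an HDAC3 KO peak within 1000 bp and 15.2% another wt-only region within 50 kb. With that floor in wt alone (for HDAC3 KO-only regions, in HDAC3 KO alone) the values were 116, 168, 0.911%, 1104 bp, 12.1% and 7.76%; 6.08% of the untreated differences were kept with LPS, and 32.8% had the higher percentile with LPS. With the 20000 top peaks of a list they were 559, 728, 4.73%, 1038 bp, 18.96%, 12.7%, 15.1% and 17.7% in the same order. Merging across 500 bp gave 1108 HDAC3 KO-only regions, 5.24%, 797.5 bp, 6.35%, 17.1% and 12.2% kept with LPS. With no peak of the other genotype within 5000 bp there were 661 wt-only and 643 HDAC3 KO-only regions, 2.97%, 16.3% near another, 15.8% kept and 33.6% higher with LPS; the share near an HDAC3 KO peak has no value there. Counting a peak of the other genotype only at 50% coverage gave 3506 HDAC3 KO-only regions, 7.85%, 786 bp, 47.1%, 29.7% and 11.3% kept. The lower counts under higher floors follow from fewer peaks. Merging across 500 bp leaves no HDAC3 KO peak within 500 bp of a wt-only region, which by itself lowers the share near one. Under the 50% coverage setting, regions that a peak of the other genotype partly covers are let in. Other causes were not tested. For the share with the higher percentile with LPS, no background over all regions called in both wt libraries is given under these settings. The planned promoter and motif shares were not run, for lack of an mm9 annotation and genome. No paired analysis was possible because the groups share only 1 replicate number and these results come from no test. Unknown depth limits every call of an absent peak.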
